A study of Homo sapiens with 6 samples.

Results

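The genes described here encode the enzymes of glycolysis and of the pentose phosphate pathway, together with 5 regulators of glucose use. They were listed by name, and each was read from the probe set annotated to its symbol, with the brightest probe set taken where a gene had more than 1. Of 31 listed genes, 30 had a probe set of their own among 18417 genes measured in that way. The remaining gene, PGAM1, shares all of its probe sets with PGAM4. The samples were 6 monoclonal lines of K562, a line of human leukemia cells, grown from a patient with chronic myeloid leukemia, that can take on erythroid features. Of these, 3 lines stably carried pEF1a-Pu.2, a plasmid for the murine PU.2 isoform of the transcription factor PU.1, and 3 stably carried the empty plasmid pEF1a. All lines were electroporated and kept in 2 µg/mL puromycin, and each came from a single clone. Each line gave total RNA for 1 array of the Affymetrix Human Gene ST type, and the deposited values are on a log2 scale, so that a difference of 1 is a 2-fold change. The labels name an insect cell medium for these lines, whereas the study's methods name RPMI for K562.

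Glycolysis splits glucose into pyruvate and yields ATP without oxygen. The pentose phosphate pathway branches off at glucose phosphate, makes NADPH in its oxidative part and returns sugars to glycolysis in its non-oxidative part. Mature red cells lack mitochondria and live on these 2 pathways, using the hexokinase HK1, the pyruvate kinase of the PKLR gene and the mutase BPGM, which makes the bisphosphoglycerate that lowers the oxygen affinity of hemoglobin. Inherited defects of several of these enzymes cause hemolytic anemia. The comparison asks whether these genes differ in level between lines with PU.2 and lines with the empty plasmid.

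The promoters of the red cell isozymes PKLR, HK1 and BPGM are shown because they are the genes set against the other isozymes below, and those of PGD and ENO1 because these genes had the largest differences towards lower values. Each sequence is the given strand from 250 bases before to 50 bases after the gene's start in RefSeq (GRCh38.p14). Capitals mark matches on either strand to the GATA motif (AGATAA or TGATAA), to CACCC, to the hypoxia-inducible factor (HIF) site (ACGTG or GCGTG) or to the PU.1 motif (GAGGAA).
PKLR promoter, chr1:155301389-155301688, minus strand: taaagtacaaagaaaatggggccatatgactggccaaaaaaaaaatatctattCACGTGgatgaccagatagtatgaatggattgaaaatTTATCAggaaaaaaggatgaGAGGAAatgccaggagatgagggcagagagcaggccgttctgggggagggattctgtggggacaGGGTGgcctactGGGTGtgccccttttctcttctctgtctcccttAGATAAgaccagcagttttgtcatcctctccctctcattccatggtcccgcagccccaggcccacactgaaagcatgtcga
HK1 promoter, chr10:69269750-69270049, plus strand: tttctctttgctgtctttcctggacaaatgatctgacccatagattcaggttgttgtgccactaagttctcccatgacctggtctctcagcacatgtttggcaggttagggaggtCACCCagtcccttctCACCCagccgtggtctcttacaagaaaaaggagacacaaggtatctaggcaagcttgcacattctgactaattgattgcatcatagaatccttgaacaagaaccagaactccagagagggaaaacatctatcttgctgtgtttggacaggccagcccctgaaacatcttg
BPGM promoter, chr7:134646603-134646902, plus strand: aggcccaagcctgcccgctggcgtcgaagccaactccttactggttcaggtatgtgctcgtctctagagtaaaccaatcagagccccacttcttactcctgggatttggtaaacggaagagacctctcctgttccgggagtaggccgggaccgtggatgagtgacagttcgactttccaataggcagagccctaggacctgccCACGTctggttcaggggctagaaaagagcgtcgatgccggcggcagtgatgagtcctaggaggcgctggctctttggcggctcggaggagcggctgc
PGD promoter, chr1:10398814-10399113, plus strand: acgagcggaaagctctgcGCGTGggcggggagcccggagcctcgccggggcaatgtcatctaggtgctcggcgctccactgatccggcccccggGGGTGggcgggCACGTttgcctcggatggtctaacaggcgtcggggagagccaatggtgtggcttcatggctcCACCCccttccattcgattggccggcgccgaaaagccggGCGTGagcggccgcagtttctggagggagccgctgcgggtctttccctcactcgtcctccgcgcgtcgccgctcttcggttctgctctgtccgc
ENO1 promoter, chr1:8878637-8878936, minus strand: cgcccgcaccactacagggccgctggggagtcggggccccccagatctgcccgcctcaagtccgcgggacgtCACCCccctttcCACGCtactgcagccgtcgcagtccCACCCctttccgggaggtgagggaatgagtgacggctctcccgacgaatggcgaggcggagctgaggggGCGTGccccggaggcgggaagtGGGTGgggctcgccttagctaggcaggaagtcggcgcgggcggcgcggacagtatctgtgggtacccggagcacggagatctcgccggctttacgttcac

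The PKLR window held 2 GATA matches, 2 of CACCC, 2 of the HIF site that overlap in 1 palindrome, and 1 of the PU.1 motif. Its GATA matches begin at positions -160 and -31 relative to the start. The HK1 window held 2 CACCC matches, and the BPGM window 1 HIF match. HK1 has further start sites, among them that of its red cell form, which this window need not hold. The PGD window held 2 CACCC and 3 HIF matches and the ENO1 window 3 and 2. Promoter entries were matched for 30 of the 31 genes, and PFKFB2 was not among them. A GATA match was found in 4 of these 30 (13.3%), PKLR, PGAM1, ENO3 and PDK1, against 16.3% of 35116 promoters of the same length. CACCC was found in 23 (76.7%), against 59.9% of all promoters. The HIF site was found in 18 (60.0%), against 48.4%, and the PU.1 motif in 10 (33.3%), against 27.9%. A match is a run of letters and does not show that a factor binds there.

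None of the 30 genes passed limma over all 18417 genes at an adjusted p under 0.05, 0 higher and 0 lower. Over all genes 27 (0.147%) were higher and 41 (0.223%) lower in the pEF1a-Pu.2 lines, 0.369% in all, so that 0 of 30 does not set these genes apart from the rest. At an unadjusted p under 0.05 from limma, PKLR and PFKFB2 were higher and PGD and ENO1 lower in the pEF1a-Pu.2 lines. That is 2 of 30 in each direction, where 3.83% of all genes were higher and 5.7% lower, 9.53% in all. The lowest adjusted p among the 30 genes was 0.218, for PGD, and it lay between 0.0251 and 0.709 over the alternatives for the processing. With array weights, which favored pEF1a line 2 and called 514 genes higher and 835 lower over all genes, PKLR, PFKFB2 and PGD passed (adjusted p = 0.0256, 0.0342 and 0.0251), and under no other alternative did any of the 30. Leaving out single lines gave 8 to 16 genes higher and 11 to 27 lower over all genes, except for pEF1a line 3, without which there were 159 and 273. The median log2 fold change was 0.04 over the 30 genes and 0.02 over all genes tested. Of the 30, 20 had a value above 0 and 10 below it, and these counts became 15 and 15 under median centring of the arrays. The 95% interval of the log2 fold change lay within 1 unit either way in 28 of the 30 genes (94.1% of all genes), the exceptions being PGD and ENO1. The standard error was between 0.13 and 0.26 in these genes, and the smallest difference of any gene past the test was 0.77. Whether the spread came from the clones or from handling of the RNA cannot be told apart with 1 array per line.

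**Figure D1:**
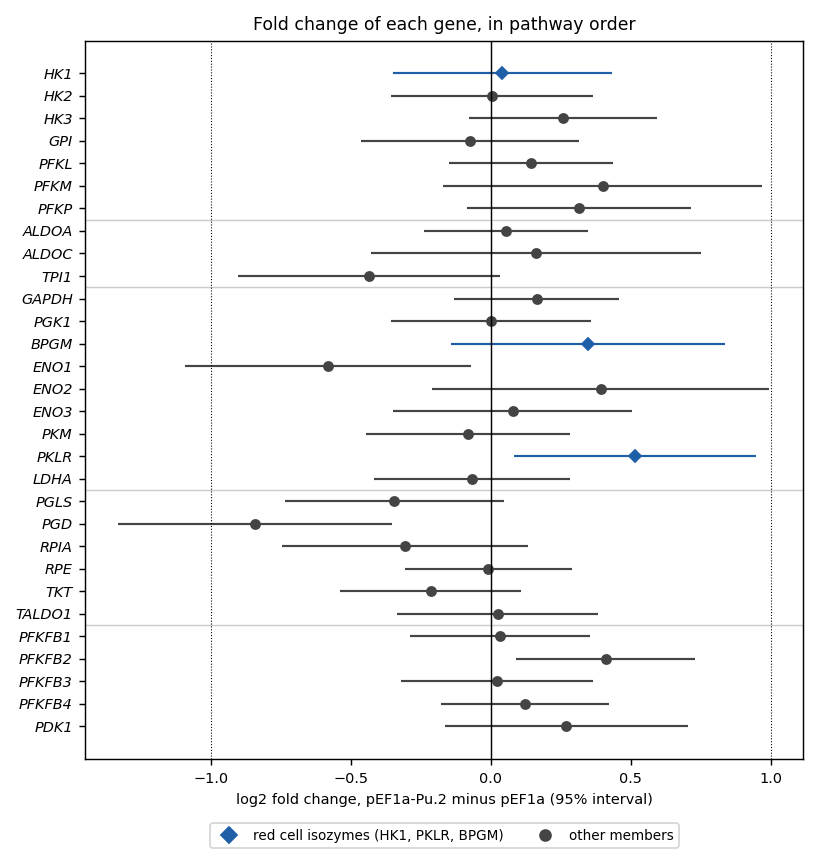
Log2 fold change of 30 genes of glycolysis, the pentose phosphate pathway and their regulators (horizontal axis, pEF1a-Pu.2 minus pEF1a, 3 lines each) with 95% intervals from limma, in pathway order from top to bottom with lines between the groups of steps. Blue diamonds are HK1, PKLR and BPGM, and dotted lines mark a 2-fold change; only the intervals of PGD and ENO1 cross one.

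The arrays had medians of 5.34 to 5.40 in the pEF1a-Pu.2 lines and of 5.30 to 5.42 in the pEF1a lines. The erythroid markers ALAS2 and HBZ moved with the comparison. Of 11 measured, ALAS2 and HBZ were higher past limma (log2 fold changes of 3.01 and 1.59, adjusted p = 0.0068 and 0.0111) and none was lower, and 10 of the 11 had a log2 fold change above 0, with a median of 0.25. The other erythroid markers had log2 fold changes from -0.11 (NFE2) to 0.37 (EPB42), with limma adjusted p between 0.607 and 0.914. The mean over the list, in which ALAS2 and HBZ differed by far the most, was 7.53 to 8.02 in the pEF1a-Pu.2 lines and 7.00 to 7.29 in the pEF1a lines. Of 6 myeloid markers LYZ was lower past limma (log2 fold change -2.64, adjusted p = 0.00524) and none was higher, while CD68 was lower only before adjustment (-0.64, adjusted p = 0.264). CSF1R, ITGAM and MPO had values of 0.13, 0.16 and 0.22, so that 3 myeloid markers lay above 0 and 3 below, with a median of 0.04. The list mean, in which LYZ differed by far the most, was 4.72 to 4.81 in the pEF1a-Pu.2 lines and 5.03 to 5.42 in the pEF1a lines. None of 5 megakaryocyte markers passed limma, 0 had an unadjusted p under 0.05, and 4 lay under the array median in every line, the largest difference being that of PF4 (0.18). Of 5 lymphocyte markers 0 passed and 3 lay under the array median in every line, while the T cell gene CD3D was the 1 with an unadjusted p under 0.05 (log2 fold change -1.25, adjusted p = 0.0896), against a list median of -0.12. The lymphocyte list averaged 4.39 to 4.48 in the pEF1a-Pu.2 lines and 4.62 to 4.87 in the pEF1a lines. Their part in the values below was not tested. PU.2 is encoded by a murine cDNA, and whether human probe sets pick up its transcript was not tested. The labels were therefore not checked through the transgene.

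Among the red cell isozymes, PKLR was the highest in fold change, BPGM followed and HK1 hardly differed. PKLR, which encodes the pyruvate kinase of red cells and of liver, had log2 values of 6.51, 6.41 and 6.14 in pEF1a-Pu.2 lines 1, 2 and 3, against 5.62, 5.66 and 6.24 in pEF1a lines 1, 2 and 3. The groups overlapped because pEF1a line 3 lay above pEF1a-Pu.2 line 3, while pEF1a lines 1 and 2 lay below every pEF1a-Pu.2 line. The log2 fold change was 0.52 (standard error 0.19, 95% interval 0.08 to 0.95, limma adjusted p = 0.42). Without pEF1a line 3 it was 0.71 (adjusted p = 0.0504), and without any 1 line it lay between 0.41 and 0.71.

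BPGM had values of 6.58, 6.43 and 5.99 in the pEF1a-Pu.2 lines and of 5.61, 6.06 and 6.29 in the pEF1a lines. Its lowest line was pEF1a line 1, and pEF1a-Pu.2 line 3 lay inside the range of the pEF1a lines. The log2 fold change was 0.35 (standard error 0.21, 95% interval -0.14 to 0.84, limma adjusted p = 0.705). Without pEF1a line 1 it was 0.16, and without pEF1a-Pu.2 line 3 it was 0.52. HK1, the hexokinase that starts glycolysis in red cells and in most other cells, had 8.29, 8.52 and 8.07 in the pEF1a-Pu.2 lines and 8.13, 8.09 and 8.54 in the pEF1a lines. Both groups spanned almost the same range, and the log2 fold change was 0.04 (standard error 0.17, 95% interval -0.35 to 0.43, limma adjusted p = 0.973). The median over these 3 genes was 0.35, the value of BPGM, and over the other 27 it was 0.02, or -0.0090 under median centring. Without pEF1a line 1 the median of the 3 was 0.16, and without pEF1a-Pu.2 line 3 it was 0.52. None of the 3 passed limma, and 1 was higher at an unadjusted p under 0.05, where 3.83% of all genes were. In all 3, pEF1a line 3 was the highest of the pEF1a lines, by 0.60, 0.46 and 0.43 above the mean of pEF1a lines 1 and 2 in PKLR, BPGM and HK1.

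Whether a red cell isozyme responded differently from its partner was tested from the difference of the 2 log2 values within each line, which sets no level of one probe set against another. Of 10 pairs planned, 9 could be run, and BPGM against PGAM1 could not because PGAM1 has no probe set of its own. With 3 lines in each group, 0.1 is the smallest p that the exact permutation test allows, so no pair could pass. PKM is the pyruvate kinase of most tissues and of proliferating cells. The difference PKLR minus PKM was -1.94, -1.51 and -2.15 in the pEF1a-Pu.2 lines, against -2.78, -2.68 and -1.93 in the pEF1a lines. Its mean was -1.87 ± 0.32 in the pEF1a-Pu.2 lines and -2.47 ± 0.47 in the pEF1a lines (SD, n = 3 lines each), a change of 0.60 (p = 0.3, exact two-sided permutation test, 0.9 adjusted over the 9 pairs). HK1 minus HK2, where HK2 is the hexokinase of muscle and many tumors, averaged 0.89 ± 0.12 and 0.85 ± 0.24 (SD, n = 3 lines each) in the pEF1a-Pu.2 and pEF1a lines, a change of 0.04 (p = 0.9, exact permutation test, 0.9 adjusted). The 1 pair without overlap of the groups was ENO3 minus ENO1, with -5.99, -5.81 and -5.45 in the pEF1a-Pu.2 lines and -6.33, -6.57 and -6.33 in the pEF1a lines. Its change was 0.66 (p = 0.1, exact permutation test, the smallest this design allows, 0.9 adjusted). ENO3, the muscle enolase, lay under the array median in every line, and this change came with the lower ENO1 values described below. ENO2 minus ENO1 changed by 0.97 (p = 0.3, exact permutation test, 0.9 adjusted). ENO2 lay above the array median only in pEF1a-Pu.2 line 1, and this change too came with the lower ENO1 values. The other 5 pairs changed by between -0.17 and 0.39, each with overlap.

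**Figure D2:**
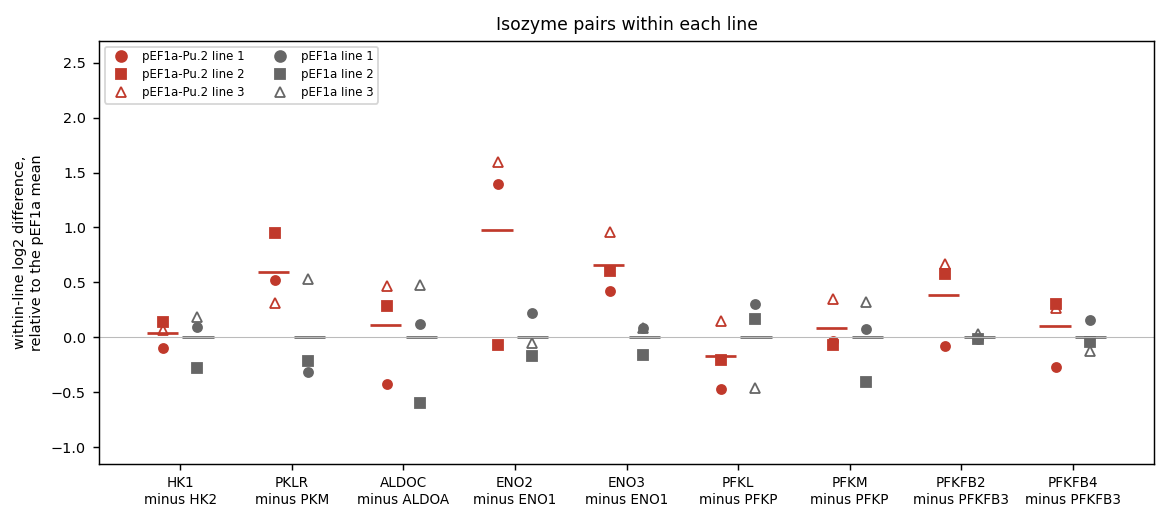
Difference of the log2 values of 2 isozymes within each of 6 K562 lines (vertical axis, relative to the mean of the pEF1a lines), with red symbols for pEF1a-Pu.2 lines, gray symbols for pEF1a lines, symbol shapes for line numbers and bars for group means. Only ENO3 minus ENO1 separates the groups, and pEF1a line 3 lies among the red symbols for PKLR minus PKM.

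The genes of hexose entry lie at the start of glycolysis, and none of the 7 passed limma at an adjusted or an unadjusted p under 0.05. Their median log2 fold change was 0.14. The muscle phosphofructokinase PFKM, whose subunit also serves in red cells, had 7.33, 7.16 and 7.23 in the pEF1a-Pu.2 lines and 6.74, 6.34 and 7.44 in the pEF1a lines. The pEF1a-Pu.2 lines lay close together, and pEF1a line 3 lay above all of them. Its log2 fold change was 0.40 (standard error 0.25, limma adjusted p = 0.709), which became 0.15 without pEF1a line 2 and 0.70 (adjusted p = 0.065) without pEF1a line 3. The platelet-type phosphofructokinase PFKP had 7.37, 7.24 and 6.89 in the pEF1a-Pu.2 lines and 6.67, 6.75 and 7.13 in the pEF1a lines, a log2 fold change of 0.32 (limma adjusted p = 0.654). It shared with PFKM a highest pEF1a value in line 3. The liver-type subunit PFKL, which red cells combine with PFKM, had a log2 fold change of 0.14 (limma adjusted p = 0.828), with values of 6.11, 6.24 and 6.25 in the pEF1a-Pu.2 lines and 6.18, 6.12 and 5.87 in the pEF1a lines. HK2 had 7.54, 7.53 and 7.15 in the pEF1a-Pu.2 lines and 7.18, 7.52 and 7.51 in the pEF1a lines, a log2 fold change of 0.0022 (95% interval -0.36 to 0.36). HK3, a hexokinase of white blood cells, lay under the array median in every line and had a log2 fold change of 0.26 (limma adjusted p = 0.668). GPI, which turns glucose phosphate into fructose phosphate, had a log2 fold change of -0.07 (limma adjusted p = 0.945), and 0.06 without pEF1a-Pu.2 line 3.

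In the aldolase and triose steps none of the 3 genes passed limma at either level. TPI1, which interconverts the 2 triose phosphates, had 9.52, 9.29 and 8.87 in the pEF1a-Pu.2 lines and 9.35, 9.91 and 9.74 in the pEF1a lines. The groups overlapped through pEF1a line 1, and the lowest value was that of pEF1a-Pu.2 line 3. Its log2 fold change was -0.44 (standard error 0.20, limma adjusted p = 0.574), and its second, dimmer probe set gave -0.41 (standard error 0.21) in a fit of every probe set. ALDOA, the aldolase of muscle and red cells, had 7.91, 7.92 and 7.66 in the pEF1a-Pu.2 lines and 7.76, 7.89 and 7.67 in the pEF1a lines, a log2 fold change of 0.05 (95% interval -0.24 to 0.35). ALDOC, the aldolase known from brain, had 7.48, 8.21 and 8.13 in the pEF1a-Pu.2 lines and 7.89, 7.30 and 8.15 in the pEF1a lines. Both groups held a low line, pEF1a-Pu.2 line 1 and pEF1a line 2, and its log2 fold change was 0.16 (95% interval -0.43 to 0.75).

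In lower glycolysis, ENO1 had the largest difference. This main enolase turns phosphoglycerate into phosphoenolpyruvate. ENO1 had 10.59, 11.04 and 10.10 in the pEF1a-Pu.2 lines, against 11.27, 11.22 and 10.99 in the pEF1a lines. The groups overlapped through pEF1a-Pu.2 line 2 and pEF1a line 3, and pEF1a-Pu.2 line 3 was the lowest line. The log2 fold change was -0.58 (standard error 0.22, 95% interval -1.10 to -0.07, limma adjusted p = 0.445), and -0.34 without pEF1a-Pu.2 line 3. ENO2, the enolase of neurons, lay above every pEF1a line in pEF1a-Pu.2 lines 1 and 3 but not in line 2, with 5.62, 4.61 and 5.34 in the pEF1a-Pu.2 lines and 5.13, 4.69 and 4.57 in the pEF1a lines (log2 fold change 0.39, limma adjusted p = 0.739). Without pEF1a-Pu.2 line 1 this was 0.17, and without pEF1a-Pu.2 line 2 it was 0.68. ENO3 had a log2 fold change of 0.08 (limma adjusted p = 0.95), with 4.61, 5.23 and 4.65 in the pEF1a-Pu.2 lines and 4.94, 4.65 and 4.66 in the pEF1a lines.

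GAPDH, PGK1, PKM and LDHA differed little between the groups. GAPDH, the dehydrogenase of the triose step that is often used as a loading control, had 11.68, 11.77 and 11.49 in the pEF1a-Pu.2 lines and 11.59, 11.36 and 11.50 in the pEF1a lines, a log2 fold change of 0.16 (95% interval -0.13 to 0.46). PGK1, which makes the first ATP of the pathway, had a log2 fold change of 0.0009 (95% interval -0.36 to 0.36), with 8.27 to 8.63 in the pEF1a-Pu.2 lines and 8.32 to 8.73 in the pEF1a lines. PKM had 8.45, 7.92 and 8.29 in the pEF1a-Pu.2 lines and 8.41, 8.34 and 8.17 in the pEF1a lines (log2 fold change -0.08, 95% interval -0.45 to 0.28). LDHA, which turns pyruvate into lactate, had 11.18, 11.04 and 11.18 in the pEF1a-Pu.2 lines and 10.97, 11.14 and 11.49 in the pEF1a lines (log2 fold change -0.07, 95% interval -0.42 to 0.28). For the mutase PGAM1, the brightest of the 5 probe sets shared with PGAM4 had 8.90, 9.14 and 8.90 in the pEF1a-Pu.2 lines and 8.98, 8.98 and 9.20 in the pEF1a lines. In a fit of all 33297 probe sets, chosen after the data were seen, this gave a log2 fold change of -0.07 (standard error 0.13, limma adjusted p = 0.924).

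**Figure D3:**
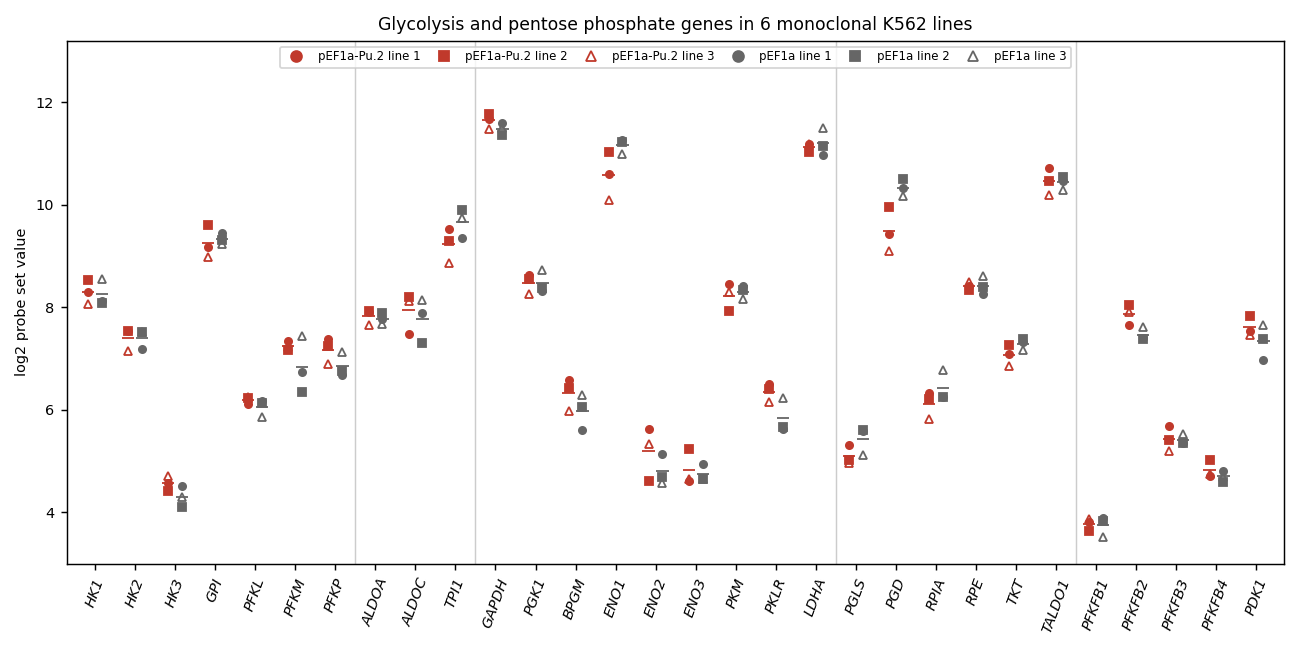
Log2 probe set value (vertical axis) of each of 30 genes in 6 monoclonal K562 lines, with red symbols for pEF1a-Pu.2 lines, gray symbols for pEF1a lines, open triangles for line 3 of each group and bars for group means of 3 lines. Gray lines part hexose entry, aldolase and triose steps, lower glycolysis, pentose phosphate pathway and regulators; only PGD and PFKFB2 show no overlap of the groups.

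The pentose phosphate genes held the largest difference of all 30 genes, that of PGD, the phosphogluconate dehydrogenase that makes NADPH in the oxidative part. PGD had 9.42, 9.96 and 9.10 in the pEF1a-Pu.2 lines, against 10.33, 10.51 and 10.18 in the pEF1a lines. All pEF1a-Pu.2 lines lay below all pEF1a lines, and pEF1a-Pu.2 line 3 was again the lowest. The log2 fold change was -0.84 (standard error 0.21, 95% interval -1.33 to -0.35, limma adjusted p = 0.218), between -1.08 without pEF1a-Pu.2 line 2 and -0.65 without pEF1a-Pu.2 line 3. The groups did not overlap in 1 gene in each direction among the 30, PGD lower and PFKFB2 higher, where 6.8% of all genes were lower and 7.02% higher without overlap, 13.8% in all.

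Of the 6 pentose phosphate genes, 5 had a log2 fold change below 0 and 0 passed limma. At an unadjusted p under 0.05 PGD alone was lower and none was higher, where 5.7% of all genes were lower and 3.83% higher. Under quantile normalization and cyclic loess 4 of 6 were below 0, and under median centring 6 were. Their median was -0.26, and -0.13 without pEF1a-Pu.2 line 3. PGLS, the lactonase of the oxidative part, had 5.31, 5.01 and 4.95 in the pEF1a-Pu.2 lines and 5.58, 5.61 and 5.12 in the pEF1a lines (log2 fold change -0.35, limma adjusted p = 0.603), and overlapped through pEF1a line 3. RPIA, the ribose phosphate isomerase, had 6.33, 6.20 and 5.82 in the pEF1a-Pu.2 lines and 6.26, 6.25 and 6.77 in the pEF1a lines. The highest value was that of pEF1a line 3 and the lowest that of pEF1a-Pu.2 line 3 (log2 fold change -0.31, limma adjusted p = 0.71). TKT, the transketolase of the non-oxidative part, had a log2 fold change of -0.22 (limma adjusted p = 0.726), with 6.85 to 7.27 in the pEF1a-Pu.2 lines and 7.16 to 7.38 in the pEF1a lines. RPE, the ribulose phosphate epimerase, had a log2 fold change of -0.0099 (95% interval -0.31 to 0.29), and the transaldolase TALDO1 one of 0.02 (95% interval -0.33 to 0.38).

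Among the regulators, PFKFB2 was the one gene whose groups did not overlap. The PFKFB genes encode enzymes that both make and break a regulatory fructose bisphosphate, distinct from the one that phosphofructokinase makes. This regulatory form is the strongest activator of phosphofructokinase. PFKFB2, known as the heart isoform, had 7.66, 8.04 and 7.92 in the pEF1a-Pu.2 lines, against 7.40, 7.38 and 7.61 in the pEF1a lines. The groups came closest between pEF1a-Pu.2 line 1 and pEF1a line 3. Its log2 fold change was 0.41 (standard error 0.14, 95% interval 0.09 to 0.73, limma adjusted p = 0.38). PFKFB3, the inducible isoform of many tumors, had 5.69, 5.42 and 5.20 in the pEF1a-Pu.2 lines and 5.36, 5.35 and 5.53 in the pEF1a lines (log2 fold change 0.02, 95% interval -0.32 to 0.36). PFKFB4 had 4.71, 5.01 and 4.75 in the pEF1a-Pu.2 lines and 4.81, 4.60 and 4.70 in the pEF1a lines. It and the liver isoform PFKFB1 lay under the array median in every line and had log2 fold changes of 0.12 and 0.03 (limma adjusted p = 0.859 and 0.973). PDK1, a kinase that keeps pyruvate out of the mitochondrial citrate cycle by inhibiting pyruvate dehydrogenase, had 7.54, 7.83 and 7.46 in the pEF1a-Pu.2 lines and 6.98, 7.39 and 7.66 in the pEF1a lines (log2 fold change 0.27, limma adjusted p = 0.76). Without pEF1a line 1 this was 0.09, and without pEF1a line 3 it was 0.43. As in PKLR, pEF1a lines 1 and 2 lay below all pEF1a-Pu.2 lines and pEF1a line 3 did not.

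The lines within a group also differed from each other. pEF1a-Pu.2 line 3 was the lowest of the 6 lines in 13 of 30 genes (43.3%), against 17.1% of all genes tested. Among genes whose mean level reached the median over all probe sets, it was the lowest in 12 of 24 (50%), against 23.2% of all 10496 genes of that level. The 13 genes were GPI, HK1, HK2, ALDOA, TPI1, ENO1, PGK1, PFKFB3 and 5 of the 6 pentose phosphate genes, PGD, PGLS, RPIA, TALDO1 and TKT. Of these, PGLS alone lay under that level. pEF1a-Pu.2 lines 1 and 2 were the highest line in 8 genes each (26.7% each), against 12.4% and 15.3% of all genes, and each was the lowest in 1. The median deviation of a gene from its mean over the 6 lines was 0.06, 0.11 and -0.13 in pEF1a-Pu.2 lines 1, 2 and 3, and 0.0006, -0.05 and 0.11 in pEF1a lines 1, 2 and 3. Over all genes it lay between -0.04 and 0.04 in each line. pEF1a line 3 lay closer to the mean of the pEF1a-Pu.2 lines than to that of pEF1a lines 1 and 2 in 18 of 30 genes (60%), against 51% of all genes. Leaving out pEF1a line 3 put 6 of the 30 genes higher and 3 lower below an unadjusted p of 0.05 from limma. The share over all genes, in either direction, was then 11.8%. Leaving out pEF1a-Pu.2 line 3 put 3 higher and 1 lower, against 6.8% of all genes in either direction. In both cases 0 of the 30 passed the adjusted test. Single lines also moved TPI1 (-0.60 without pEF1a line 1, -0.26 without pEF1a-Pu.2 line 3), TKT (-0.31 without pEF1a-Pu.2 line 2, -0.11 without pEF1a-Pu.2 line 3) and RPIA (-0.41 without pEF1a-Pu.2 line 1, -0.13 without pEF1a line 3). HK3 lay at 0.15 without pEF1a line 2, PFKL at 0.05 without pEF1a line 3, GAPDH at 0.10 and PFKFB4 at 0.03 without pEF1a-Pu.2 line 2.

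**Figure D4:**
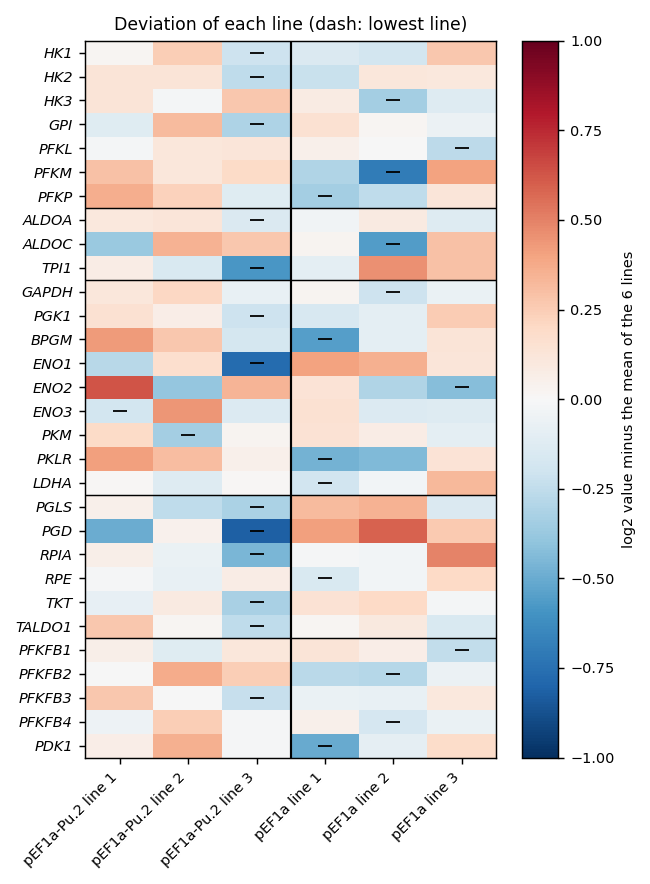
Log2 value minus the mean of the 6 lines (color scale) for 30 genes (rows, in pathway order) in 3 pEF1a-Pu.2 lines and 3 pEF1a lines (columns), with a dash on the lowest line of each gene. pEF1a-Pu.2 line 3 carries 13 of the 30 dashes, 5 of them in the pentose phosphate genes.

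Other genes of the pathway, read from lists of the same kind, did not pass limma either. Of 17 further enzymes of glycolysis, the pentose phosphate pathway and glucose phosphate turnover, 0 passed, and their median log2 fold change was 0.06. Below an unadjusted p of 0.05, 0 were higher and 1 was lower, where 3.83% of all genes were higher and 5.7% lower. That gene was the phosphopentomutase PGM2, with a log2 fold change of -0.39 (adjusted p = 0.46). Of 13 genes of pyruvate entry into mitochondria and lactate export 0 passed, and at an unadjusted p under 0.05 PDHB, a subunit of pyruvate dehydrogenase, was the 1 lower gene (log2 fold change -0.42, adjusted p = 0.408) and 0 were higher. The median of these 13 was -0.03. Of 17 hypoxia-responsive genes and regulators outside glycolysis 0 passed, and their median was -0.17. Below an unadjusted p of 0.05, 2 were higher and 3 lower, against the same shares of 3.83% and 5.7% over all genes. Whether this list differs from the rest was not tested. Those higher were BNIP3L, a mitophagy receptor that clears mitochondria from maturing red cells (log2 fold change 0.47, adjusted p = 0.354), and the prolyl hydroxylase EGLN1 (0.34, adjusted p = 0.41). Those lower were VHL, which marks HIF proteins for degradation (-0.39, adjusted p = 0.38), the histone demethylase KDM3A (-0.43, adjusted p = 0.499) and the stress gene DDIT4 (-0.74, adjusted p = 0.51). The largest difference of this list was that of EPAS1, a HIF subunit, with -0.74 (adjusted p = 0.671) and values of 5.97, 5.99 and 5.76 in the pEF1a-Pu.2 lines and 7.17, 7.29 and 5.48 in the pEF1a lines.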

How the data were processed

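The authors hybridized total RNA of 6 K562 lines to 1 array each, used Affymetrix Expression Console for their analysis and deposited a table of log2 values, 1 for each probe set on each array. For the algorithm, its version and any scan batch, the sources used here give nothing. Of 33297 probe sets, 19460 had a single gene symbol, 1754 had more than 1, and 12083 were without a name here. Gene IDs of 19429 probe sets were found in the RefSeq table of GRCh38.p14 and 0 symbols needed updating. The brightest probe set by mean over the 6 arrays stood for a gene, which gave 18417 genes, with no filter on dim ones. The groups were compared with limma 3.58.1 (R 4.3.3; lmFit, then eBayes without a trend) over all genes with Benjamini-Hochberg adjustment at a threshold of 0.05. Isozyme pairs were compared with an exact two-sided permutation test over lines. The number of arrays limits the precision. Each line came from a single clone, but the sources do not say whether the clones came from separate electroporations. The p-values therefore measure only the spread between these lines, with 1 array each.

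The members and gene lists were chosen with earlier results of these data known. Every member is named, and values per line are given for the members with the 10 largest differences, the red cell isozymes and the paired isozymes. Of other lists, genes past the test and the largest difference are named, and those with only an unadjusted p under 0.05 were added after their values were seen. Of PGAM1, only probe sets shared with PGAM4 were read. Alternatives tried were array weights, quantile normalization, median centring, cyclic loess, a filter on dim genes, a robust eBayes with trend, averaging the probe sets of each gene, testing every probe set, leaving out single lines and blocking on replicate number. The fit was tested on simulated data. Promoters came from RefSeq and were matched by gene ID.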

Additional observations from a re-analysis of the deposited data

How the results depend on the processing

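No member passed limma under the alternatives other than array weights, under which PKLR and PFKFB2 (2 higher; adjusted p = 0.0256 and 0.0342) and PGD (1 lower; adjusted p = 0.0251) did. Those weights were 5.52 for pEF1a line 2 and 0.40 to 1.34 for the other lines, and called 514 genes higher and 835 lower over all genes. Median centring called 17 higher, against 27 as reported. With 1 line left out 8 to 159 genes were higher and 11 to 273 lower, both most without pEF1a line 3, and 0 members passed. Of 444 values of members under alternatives, 41 turned sign, all of members with differences between -0.08 and 0.16, and 17 members kept their direction throughout. Under median centring HK2 was at -0.031, PGK1 at -0.0323, TALDO1 at -0.0090, PFKFB1 at -0.0005 and PFKFB3 at -0.0119. Under quantile normalization RPE was at 0.0154, PFKFB1 at -0.0003 and PFKFB3 at -0.0144, and under cyclic loess RPE at 0.0157, PFKFB1 at -0.0064 and PFKFB3 at -0.0182. Under array weights HK2 was at -0.0655, GPI at 0.0050, ALDOA at -0.0166, RPE at 0.0015, TALDO1 at -0.0555 and PFKFB1 at -0.0552. The causes were not tested. With 1 line left out HK1 lay between -0.0739 and 0.18, HK2 between -0.11 and 0.13, GPI between -0.25 and 0.0596, ALDOC between -0.0781 and 0.39, PGK1 between -0.0787 and 0.13, ENO3 between -0.12 and 0.19, PKM between -0.20 and 0.0680, LDHA between -0.18 and 0.0756, RPE between -0.0895 and 0.0865, TALDO1 between -0.11 and 0.16, PFKFB1 between -0.0808 and 0.10 and PFKFB3 between -0.11 and 0.14. Of the isozyme pairs, HK1 minus HK2 then lay between -0.10 and 0.13, ALDOC minus ALDOA between -0.19 and 0.37, PFKM minus PFKP between -0.12 and 0.24 and PFKFB4 minus PFKFB3 between -0.0022 and 0.29.

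The replicate numbers did not pair the lines, since same-numbered lines deviated from their group means with correlations across genes of -0.15, -0.15 and -0.04. With the replicate number as a block 23 genes were higher and 41 lower, and 0 members passed. Genes are not independent replicates.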

Other observations

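PGD and ENO1, which had the lowest log2 fold changes of the 30 genes, both lie on chromosome 1, as do PKLR and PFKFB2, which had the highest (0.52 and 0.41). Between ENO1 and PGD, 20 measured genes, both ends included, stand in the order of the RefSeq table, a block looked at after the values were seen. Of these 20, 0 passed limma, and 4 were lower and 0 higher at an unadjusted p under 0.05. The 4 were ENO1, PGD, the nicotinamide mononucleotide adenylyltransferase NMNAT1, which makes NAD, and LZIC. In 11 genes of the block the mean level reached the median over all probe sets, and the 4 lay among them. Since ENO1 and PGD defined the block, their values are fixed by that choice. Without them 2 of 9 such genes (22.2%) were lower at that p, against 8.5% of all 10496 genes of that level, and pEF1a-Pu.2 line 3 was the lowest line in 3 of 9 (33.3%), against 23.2%. The median log2 fold change of the 9 was -0.07. With dim genes kept, the block without its ends held 18 genes, of which 9 lay below 0, and their median was 0.01. Of the 18, 2 (11.1%) were lower at that p, against 5.7% of all genes tested. NMNAT1 had 5.66, 5.59 and 5.67 in the pEF1a-Pu.2 lines and 6.01, 6.36 and 6.06 in the pEF1a lines, without overlap. It was the 1 gene of these 18 that was lower without overlap (5.6%, against 6.8% of all genes). In the other direction 2 of the 18, CA6 and PIK3CD, were higher without overlap, where 7.02% of all genes were. LZIC had 8.03, 8.30 and 7.52 in the pEF1a-Pu.2 lines and 8.23, 8.74 and 9.18 in the pEF1a lines. Like PGD and ENO1, it was highest in line 2 and lowest in line 3 of the pEF1a-Pu.2 lines. That order was not particular to the block. It was also that of MIR34A, SLC25A33, RBP7 and UBE4B in the block. Among the 30 genes it was that of HK1, GPI, ALDOA, GAPDH, TKT and PDK1 on other chromosomes. Its share over all genes was not counted. UBE4B and KIF1B, which precede PGD among the measured genes, had log2 fold changes of -0.06 and -0.11. GAPDH, TPI1, ENO2 and PFKM, on chromosome 12, had log2 fold changes of 0.16, -0.44, 0.39 and 0.40, which were of both signs.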
